A study of Mus musculus with 15 samples.

Results

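Transcripts of the classical axon guidance systems were described in 3 cell types of the mouse cortex. The set holds 72 of the 20610 genes in the deposited table, taken by gene symbol and not by level. It comprises 7 class 3, 6 class 4, 2 class 5, 4 class 6 and 1 class 7 semaphorins, 4 class A, 3 class B, 1 class C and 1 class D plexins, and 2 neuropilins. It further comprises 5 ephrin-As, 3 ephrin-Bs, 9 EphA and 5 EphB receptors, 3 Slits, 4 Robos, 4 netrins, 2 netrin-Gs, 4 Unc5 receptors and Dcc. The symbol pattern also takes in Unc5cl, which is related to the intracellular part of the Unc5 receptors and is not a guidance receptor. By role the set has 37 ligands, 34 receptors and that 1 other gene.

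Neurons, astrocytes and microglia were compared, each taken by magnetic isolation from cortices of male wild-type (WT) mice at postnatal day 28 (P28), with 5 polyA RNA-seq libraries per cell type (15 altogether, n = 5). The comparison asks how gene expression differs between these cell types. The labels give neither the strain nor the surface antigens used for isolation, and they tie no library to an animal, so p-values measure the spread between libraries, which may be technical. Values are TPM, a share of the library's transcripts corrected for transcript length, so that levels of different genes can be set side by side. In the text, ± after a TPM value is the SD over 5 libraries and ± after a log2 difference is its standard error.

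Guidance proteins steer growing axons by attraction or repulsion, and in the mature brain many of them go on to act at synapses, on glia and in blood vessels. Semaphorins signal through plexins, for most secreted class 3 members together with a neuropilin, ephrins signal through Eph receptor tyrosine kinases on the cell they touch, Slits through Robos, and netrins through Dcc and the Unc5 receptors. Several of these genes are known for roles outside neurons, such as Robo4 in endothelial cells and Sema4d in oligodendrocytes and lymphocytes, so markers of those cells are given beside the results.

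The libraries carried the markers of their labelled cell types, and none of these markers was at 0 in all libraries of a group. The 12 neuron markers summed to 1138 ± 363 TPM in neurons, 171 ± 58.5 TPM in astrocytes and 67.5 ± 42.4 TPM in microglia. The 12 astrocyte markers summed to 142 ± 12.1, 8903 ± 1364 and 243 ± 36.7 TPM in the same order of cell types, and the 12 microglia markers to 82.2 ± 19.6, 159.8 ± 19.8 and 69896 ± 14502. Markers of endothelial cells, which line blood vessels, were higher in the neuron libraries than the neuron markers themselves: the 12 genes, among them Cldn5, Pecam1 and Cdh5, summed to 4726 ± 1193 TPM in neurons, 717 ± 158 TPM in astrocytes and 119 ± 28.1 TPM in microglia, with 12, 11 and 8 of the 12 at a mean of 1 TPM or more. Against astrocytes, all 12 endothelial markers were called higher in neurons with a median log2 difference of 2.32, beside 11 of the 12 neuron markers with a median of 2.30. The 10 markers of mural cells, the pericytes and smooth muscle of vessel walls, also exceeded the neuron markers in the neuron libraries, at 1895 ± 745 TPM in neurons, 317 ± 60.9 TPM in astrocytes and 89.7 ± 35.4 TPM in microglia. Of them 5 were called higher in neurons than in astrocytes and all 10 higher in neurons than in microglia. The 9 markers of oligodendrocyte precursors summed to 271 ± 117 TPM in neurons, 955 ± 195 TPM in astrocytes and 189.7 ± 177 TPM in microglia. By gene they leaned the other way between neurons and astrocytes, with a median log2 difference, neuron minus astrocyte, of 0.84. Of them 2 were called higher in neurons and 1 lower, the lowest difference being -3.45. The 7 markers of border macrophages summed, in the same order of cell types, to 46.8 ± 9.205, 59.7 ± 11.8 and 1401 ± 249, and the 8 of fibroblasts to 204 ± 64.8, 279 ± 42.7 and 42.5 ± 11.7. The 9 mature oligodendrocyte markers summed here, among them Mbp and Mog, varied between libraries of 1 cell type and summed to 92.9 to 9847 TPM in neurons, 433 to 3704 TPM in astrocytes and 220.01 to 60264 TPM in microglia. Within microglia, libraries 1 and 2 held the most of them, as they did within neurons. In microglia library 1 they exceeded the microglia markers, at 60264 beside 56733 TPM. They also exceeded the neuron markers in neuron libraries 1 and 2, at 7887 and 9847 beside 948 and 773 TPM. In every other library they were below the markers of the labelled cell type.

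Guidance transcripts were found in all 3 cell types, with the highest sum in neurons. The 72 genes summed to 328 ± 71.4 TPM in neurons, 257 ± 66.6 TPM in astrocytes and 169 ± 17 TPM in microglia. After median-of-ratios scaling, which sets the libraries level over all expressed genes, the sums were 285 ± 25.7 in neurons, 211 ± 25.2 in astrocytes and 228 ± 22.5 in microglia, so the order of the 2 glial types turned. At a mean of 1 TPM or more stood 50 of the 72 in neurons, 46 in astrocytes and 20 in microglia, and at 10 TPM or more 6, 9 and 3. The highest of the 3 means was in neurons for 42 genes, in astrocytes for 21 and in microglia for 9, and after that scaling for 42, 18 and 12. In these bulk samples, fewer cells of a type and less RNA per cell cannot be told apart.

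Each cell type had the highest sum for some families, as the plot of family sums shows. Neurons were highest for class 3 semaphorins (44.4 ± 7.904 TPM, against 12.99 ± 5.07 in astrocytes and 2.496 ± 1.17 in microglia) and for ephrin-As (87.02 ± 27.7, against 31.4 ± 4.84 and 10.5 ± 5.38). Astrocytes were highest for EphB receptors, at 27.3 ± 6.96 TPM, beside 12.4 ± 2.18 in neurons and 5.62 ± 3.17 in microglia. Microglia were highest for class B plexins, at 47.7 ± 16.7 TPM, beside 9.44 ± 3.696 in neurons and 22.97 ± 2.42 in astrocytes. Class 4 semaphorins were high in both glia, with 11.5 ± 2.48 TPM in neurons, 59.1 ± 16.9 TPM in astrocytes and 49.04 ± 14.8 TPM in microglia, and which of the glia was higher turned with median-of-ratios scaling (10.4 ± 3.53, 48.3 ± 7.64 and 66.7 ± 21.5). Single genes made most of several sums: Sema3c averaged 36.1 TPM and Efna1 75 TPM in neurons, Ephb1 16.1 TPM in astrocytes and Plxnb2 45.1 TPM in microglia. For neuron minus astrocyte, 2 class 3 semaphorins and 2 ephrin-As were called higher, and 1 of each lower. For astrocyte minus microglia, 1 class B plexin was called higher and 2 lower. The part of endothelial and mural cell transcripts in the levels of Sema3c and Efna1 was not tested. These sums are a description with no test.

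**Figure D1:**
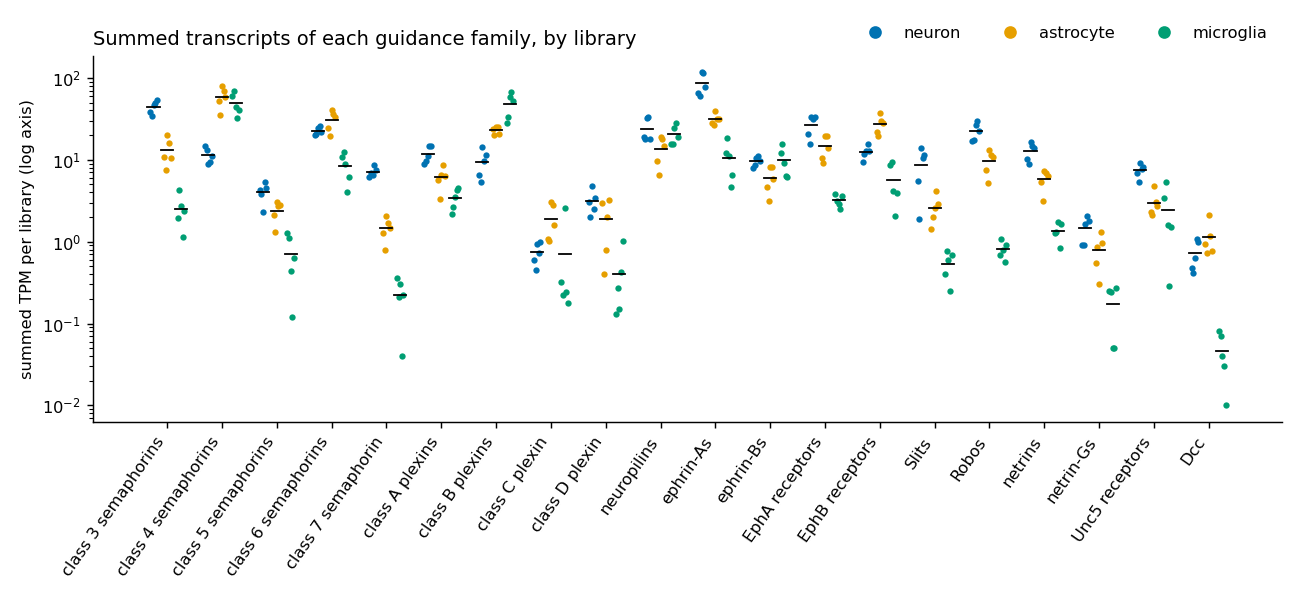
Summed TPM of each guidance family in each library (y axis, log scale), with families along the x axis. Points are the 5 libraries of neurons (blue), astrocytes (orange) and microglia (green) and bars are their means. Class 3 semaphorins, ephrin-As and Robos are highest in neurons, EphB receptors in astrocytes and class B plexins in microglia.

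Each comparison was tested with limma on log2(TPM + 1) over the 13351 genes that reached 1 TPM in 5 libraries or more, of which 55 were guidance genes. A gene is called different at a Benjamini-Hochberg adjusted p below 0.05 over all tested genes and a log2 difference of at least 1, and a gene called higher in 1 cell type than in each of the other two is termed enriched in it. Of the 55 tested, Sema3g and Unc5a reached 1 TPM only in neuron libraries, Sema3b only in astrocyte libraries and Plxnb3 only in microglia libraries, so the filter itself admitted these 4 through 1 cell type.

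Neurons and astrocytes differed in both directions to a like extent. In neurons 10 guidance genes were called higher (Sema3c, Efna1, Robo4, Efna3, Sema7a, Plxna2, Epha4, Sema3g, Unc5b and Ntn4) and 9 lower (Sema4b, Sema4a, Ephb1, Plxnb1, Efna2, Sema4d, Ephb3, Sema6d and Sema3b). Together they made 34.5% of the 55, beside 25.6% of all tested genes (12.9% higher and 12.7% lower). The median log2 difference, neuron minus astrocyte, was 0.30 over the guidance genes and -0.03 over all genes. Ligands split evenly, with 6 of 30 higher and 6 lower, and of 25 receptors 4 were higher and 3 lower.

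Against microglia, most called guidance genes were higher in the other cell type. In neurons 26 of the 55 were called higher than in microglia and 4 lower, beside 29.5% and 9.74% of all tested genes (39.3% either way, against 54.5% of the guidance genes). The 4 lower in neurons were Sema4d, Plxnb2, Sema4b and Plxnb3. In astrocytes 20 were called higher than in microglia and 2 lower, Plxnb2 and Plxnb3, beside 32.3% and 10.2% of all tested genes (42.5% either way, against 40% of the guidance genes). All genes shared this lean: the median log2 difference over all genes was 0.48 for neuron minus microglia and 0.57 for astrocyte minus microglia, and over the guidance genes 0.94 and 0.87.

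The lean against microglia depended on how libraries were scaled to each other. Median-of-ratios scaling moved the median over all genes by -0.52 for neuron minus microglia and by -0.56 for astrocyte minus microglia, and quantile normalization by -0.45 and -0.52. Of the called guidance genes, 86.7% were higher in neurons than in microglia with TPM as deposited, 77.8% after median-of-ratios scaling and 59.1% after quantile normalization. For astrocytes against microglia the shares were 90.9%, 63.2% and 58.8%. Over all called genes the shares in the same order were 75.2%, 55.4% and 55.6% for neurons and 76%, 53% and 54.7% for astrocytes. After quantile normalization the guidance genes were thus close to all genes. Calls against microglia that ended under both scalings were those of Efna2, Efna4, Plxna1 and Sema6a in neurons and of Efna4, Epha4, Epha7, Ephb6, Ntn4, Plxna1, Sema4b and Sema5b in astrocytes. Under quantile normalization alone the calls of Efnb2, Epha3, Ephb6, Ntn1, Plxnd1, Sema5b, Sema6b and Unc5a in neurons and of Ephb4 and Robo4 in astrocytes also ended, and no called difference changed sign under either. The call of Ntn5 in neurons ended under quantile normalization too, and Ntn5 was not tested after median-of-ratios scaling. Calls were also gained, nearly all of them higher in microglia. Under both scalings Efnb3, Nrp1, Plxna4, Sema4c and Sema4d were called lower in astrocytes than in microglia, and Sema4a and Sema4g lower in neurons than in microglia. Quantile normalization alone added Efnb3, Ephb1 and Sema4c as lower in neurons than in microglia and Nrp1 as higher in neurons than in astrocytes.

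**Figure D2:**
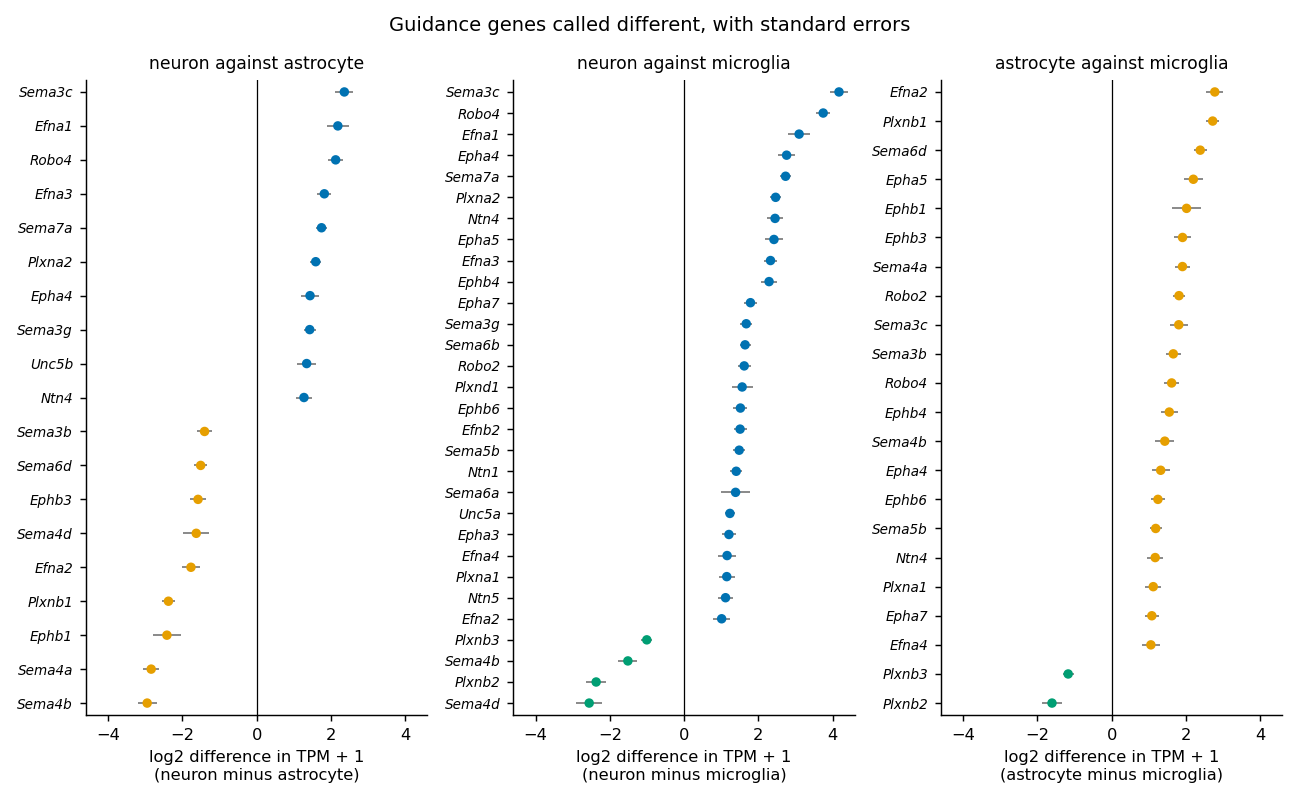
Log2 difference in TPM + 1 (x axis) with its standard error for every guidance gene called in each comparison, neuron against astrocyte, neuron against microglia and astrocyte against microglia from left to right. Points right of 0 are higher in the first cell type named. Neurons and astrocytes have 10 and 9 genes on their sides, while 26 of 30 and 20 of 22 lie right of 0 against microglia.

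Enrichment in 1 cell type was found for 19 of the 55 tested genes. Among them Sema3g, Sema3b and Plxnb3 passed the filter only through the cell type in which they were enriched. In neurons 9 were enriched (16.4% of those tested, beside 9.58% of all tested genes), in astrocytes 8 (14.5%, beside 10.2%) and in microglia 2 (3.64%, beside 7.42%). The microglia count was 3 of the 51 tested after median-of-ratios scaling (5.88%, beside 12.2% of all genes tested there) and 5 after quantile normalization (9.09%, beside 10.7%). It was 1 of 50 to 54 without neuron library 2 or 3 or microglia library 1, 2 or 3 (beside 5.95% to 7.65%). It was 3 of 54 without microglia library 4 (5.56%, beside 6.08%) and 3 of 33 without all libraries numbered 3 and 4 (9.09%, beside 5.9%). These were Plxnb2, Sema4d and Efnb3. With a pseudocount of 0.1 the neuron count was 15 (27.3%, beside 11.4%). Efna2, Epha4, Ntn4, Robo4, Sema3c and Sema4b were called in all 3 comparisons, for which the share of all tested genes was not counted. The values of the enriched genes by library are plotted together, and the sequences around the transcription start of 4 of them are given. These 4 were taken from genes with a single promoter entry and do not stand for the set. Sema3c and Robo4 had the largest differences between neurons and microglia. Plxnb1 and Ephb1 were among the largest between astrocytes and neurons, after Sema4b and Sema4a. The stretches run from 250 bases before to 50 after the start annotated by RefSeq on GRCm38.p6. They are written 5′ to 3′ on the gene's strand with each CG dinucleotide in capitals, at chr5:17574566-17574865 on the plus strand for Sema3c, chr9:37401722-37402021 on the plus strand for Robo4, chr9:109095186-109095485 on the plus strand for Plxnb1 and chr9:102354644-102354943 on the minus strand for Ephb1.
Sema3c: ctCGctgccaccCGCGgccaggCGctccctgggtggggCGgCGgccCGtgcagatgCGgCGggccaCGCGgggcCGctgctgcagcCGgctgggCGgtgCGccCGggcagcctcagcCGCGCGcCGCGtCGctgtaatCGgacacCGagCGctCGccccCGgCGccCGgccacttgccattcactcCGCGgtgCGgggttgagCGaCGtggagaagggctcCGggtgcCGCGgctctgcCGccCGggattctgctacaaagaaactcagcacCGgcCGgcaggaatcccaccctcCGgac
Robo4: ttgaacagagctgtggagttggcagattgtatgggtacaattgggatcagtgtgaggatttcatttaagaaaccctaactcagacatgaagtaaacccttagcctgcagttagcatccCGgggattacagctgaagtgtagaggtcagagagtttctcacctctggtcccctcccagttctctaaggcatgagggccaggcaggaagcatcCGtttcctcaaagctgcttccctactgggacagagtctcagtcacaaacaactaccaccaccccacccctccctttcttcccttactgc
Plxnb1: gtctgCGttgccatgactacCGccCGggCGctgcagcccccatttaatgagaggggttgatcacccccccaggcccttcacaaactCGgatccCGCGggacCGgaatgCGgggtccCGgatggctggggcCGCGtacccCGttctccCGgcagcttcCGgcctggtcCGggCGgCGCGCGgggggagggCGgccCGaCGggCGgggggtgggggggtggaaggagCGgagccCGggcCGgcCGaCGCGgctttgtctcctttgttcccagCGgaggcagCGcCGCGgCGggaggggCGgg
Ephb1: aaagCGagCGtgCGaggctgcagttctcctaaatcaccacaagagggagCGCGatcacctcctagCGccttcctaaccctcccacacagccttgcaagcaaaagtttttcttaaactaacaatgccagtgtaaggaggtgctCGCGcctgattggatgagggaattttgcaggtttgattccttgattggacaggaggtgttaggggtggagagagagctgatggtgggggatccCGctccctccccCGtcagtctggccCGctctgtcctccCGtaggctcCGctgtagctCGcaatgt

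The Sema3c stretch holds 42 CG dinucleotides, that of Robo4 2, that of Plxnb1 36 and that of Ephb1 14. Promoters of this kind could be matched by symbol for 62 of the 72 genes. Taking the richest promoter of each gene, the median was 23 CG dinucleotides over these 62 and 16 over the 16189 matched genes of the whole table. Over the 62 it ranged from 2 to 56, with Robo4 at the lower end. The TATA box letters TATAAA, searched on both strands, were in promoters of 2 of the 62 (3.2%), Efnb2 and Slit2, and of 14.3% of the matched genes. The letters CCGGAAG, the core bound by ETS family transcription factors, were on either strand in promoters of Ephb6 and Plxnb1 (3.2%) and of 13.6% of the matched genes. Neither motif contains the other, and a match is a description of the sequence only.

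**Figure D3:**
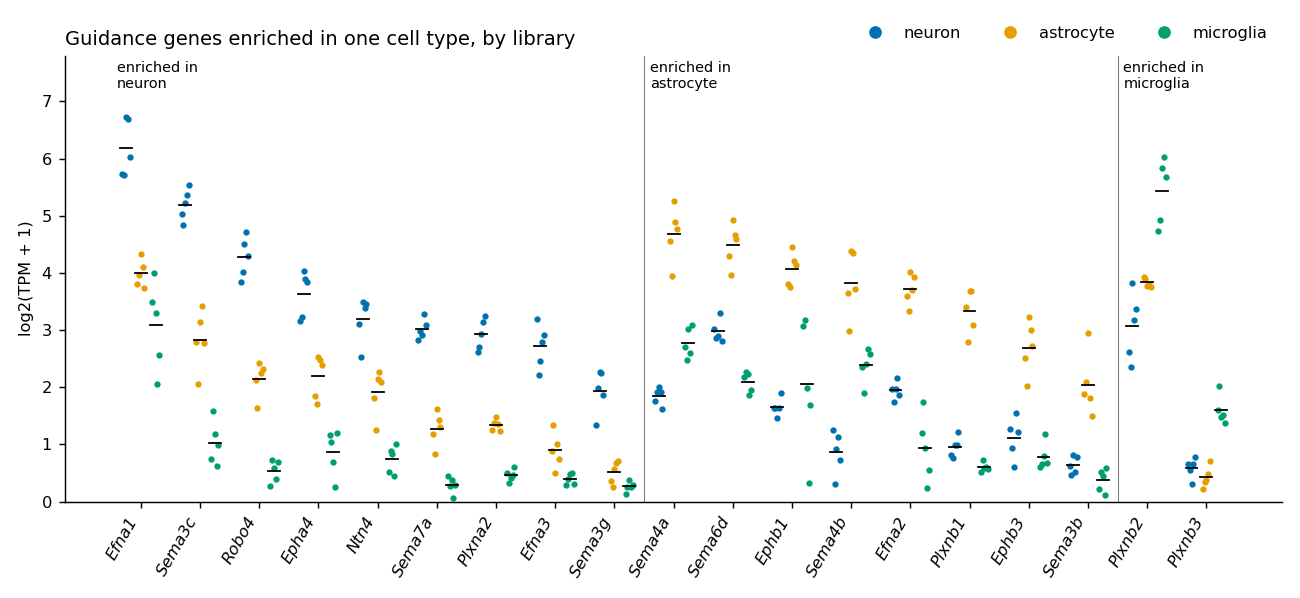
Log2(TPM + 1) in each library (y axis) of the 19 guidance genes enriched in 1 cell type (x axis), grouped by that cell type and ordered by its mean. Points are neuron (blue), astrocyte (orange) and microglia (green) libraries, 5 each, and bars are means of the log2 values. Plxnb2 is the highest of the microglia group at 25.5 to 64.3 TPM, and for Ephb1 the microglia libraries spread most.

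Among the secreted class 3 semaphorins, Sema3c dominated in every cell type. Sema3c (chr5:17574281-17730268, plus strand), which binds neuropilins and plexins and is known from the outflow tract of the developing heart, had 31.9, 27.4, 36.1, 40.1 and 45.1 in the neuron libraries, 5.92, 3.14, 7.78, 9.66 and 5.85 in the astrocyte libraries and 0.67, 2.01, 1.26, 0.54 and 0.99 in the microglia libraries (TPM). Every neuron library lay above every astrocyte library, and every astrocyte library above every microglia library. The log2 difference was 2.36 ± 0.24 (adjusted p = 2.18e-07) for neuron minus astrocyte, 4.17 ± 0.24 (adjusted p = 5.19e-11) for neuron minus microglia and 1.81 ± 0.24 (adjusted p = 2.55e-06) for astrocyte minus microglia. Sema3g (chr14:31217860-31230352, plus strand), known from arterial endothelium, measured 1.54, 2.98, 3.79, 3.75 and 2.63 in the neuron libraries, 0.28, 0.2, 0.48, 0.59 and 0.63 in the astrocyte libraries and 0.1, 0.2, 0.3, 0.2 and 0.23 in the microglia libraries. It passed the filter only through its neuron libraries, so that only these exceeded 1 TPM is no separate support. Its log2 differences were 1.43 ± 0.16 (adjusted p = 8.37e-07) over astrocytes and 1.67 ± 0.16 (adjusted p = 5.46e-08) over microglia. When any 1 neuron library was left out, Sema3g no longer passed the filter and was not tested. Sema3b (chr9:107597674-107609229, minus strand) had the opposite order of neurons and astrocytes, at 0.55, 0.38, 0.75, 0.44 and 0.72 in the neuron libraries, 2.68, 3.24, 6.68, 2.52 and 1.83 in the astrocyte libraries and 0.17, 0.44, 0.36, 0.09 and 0.51 in the microglia libraries. Sema3b passed the filter only through its astrocyte libraries, so that these alone stood above 1 TPM is no separate support. Its log2 differences were -1.40 ± 0.21 (adjusted p = 1.74e-05) for neuron minus astrocyte and 1.66 ± 0.21 (adjusted p = 1.12e-06) for astrocyte minus microglia. When any 1 astrocyte library was left out, it no longer passed the filter and was not tested.

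The remaining class 3 genes were low. Sema3f, the repellent that acts through Nrp2, lay 72.3 kb from Sema3b on chromosome 9 and averaged 1.356 ± 0.48 TPM in neurons, 0.366 ± 0.502 TPM in astrocytes and 0.194 ± 0.153 TPM in microglia, with no call. Sema3a, the classical growth cone collapsing repellent that acts through Nrp1, reached at most 2.82 TPM in any library and was not tested, nor was Sema3e, the Plxnd1 ligand, with at most 0.63 TPM. Sema3d averaged 1.89 TPM in neurons, 0.946 TPM in astrocytes and 0.552 TPM in microglia and was not called. Sema3d, Sema3a and Sema3e neighbour each other on chromosome 5, with gaps of 536.5 and 422.7 kb.

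Membrane-bound class 4 semaphorins were the main glial ligands. Sema4a (chr3:88435959-88461182, minus strand), known from retina and immune cells, had 2.39, 2.76, 3.03, 2.8 and 2.08 TPM in the neuron libraries, 22.6, 14.4, 37.3, 28.8 and 26.2 in the astrocyte libraries and 5.53, 4.54, 7.12, 5.03 and 7.55 in the microglia libraries. The 3 groups did not overlap, with astrocytes highest and neurons lowest. On the log2 scale the difference was -2.84 ± 0.21 (adjusted p = 3.55e-09) for neuron minus astrocyte and 1.91 ± 0.21 (adjusted p = 2.36e-07) for astrocyte minus microglia, while neuron minus microglia, at -0.93 ± 0.21 (adjusted p = 7.31e-04), missed the size needed for a call, which it reached under both scalings (-1.44 and -1.501) and without microglia libraries 1 and 2 (-1.06). Sema4b (chr7:80186841-80226527, plus strand) ranked its cell types in the same order, with 1.38, 0.24, 0.9, 1.19 and 0.65 in the neuron libraries, 11.6, 6.92, 19.8, 19.3 and 12.2 in the astrocyte libraries and 4.11, 2.73, 4.31, 5.33 and 5.01 in the microglia libraries. Its groups did not overlap either, and the log2 differences were -2.95 ± 0.25 (adjusted p = 2.78e-08) for neuron minus astrocyte, -1.51 ± 0.25 (adjusted p = 4.23e-05) for neuron minus microglia and 1.43 ± 0.25 (adjusted p = 7.08e-05) for astrocyte minus microglia, the last ending under both scalings.

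Sema4d (chr13:51685529-51793747, minus strand), a Plxnb1 ligand that in the adult brain is known from oligodendrocytes, was the second most abundant guidance gene of microglia. Its TPM values were 8.12, 8.29, 2.05, 1.97 and 5.28 in the neuron libraries, 16.5, 12.7, 19.3, 17.7 and 13.8 in the astrocyte libraries and 46.2, 57.3, 27.1, 16.6 and 23.8 in the microglia libraries. All neuron libraries were below all astrocyte and all microglia libraries, but the microglia libraries spread from 16.6 to 57.3 TPM and overlapped the astrocyte range. The neuron libraries were called lower than both, by -1.63 ± 0.35 (adjusted p = 7.64e-04) against astrocytes and -2.56 ± 0.35 (adjusted p = 4.05e-06) against microglia on the log2 scale, and astrocyte minus microglia was -0.93 ± 0.35 (adjusted p = 0.0242). Without all libraries numbered 3 and 4 the call against astrocytes ended. After median-of-ratios scaling astrocyte minus microglia was -1.59 (adjusted p = 0.00199) and after quantile normalization -1.39 (adjusted p = 0.00666), both calls, with which Sema4d counted as enriched in microglia. With TPM as deposited it also counted as enriched there without microglia library 4 or 5 and without all libraries numbered 3 and 4. In each of neurons and microglia, libraries 1 and 2 held the most Sema4d and also the most oligodendrocyte marker transcripts. Among astrocytes the order differed: library 2, with the most of these markers at 3704 TPM, had the least Sema4d, and library 3, at 614 TPM, the most. Without microglia libraries 1 and 2 neuron minus microglia was -2.08 ± 0.35 (adjusted p = 5.79e-05) and astrocyte minus microglia -0.46 ± 0.35 (adjusted p = 0.254). Whether oligodendrocyte transcripts account for part of these levels was not tested.

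The other class 4 genes, Sema4c, Sema4f and Sema4g, had means of at most 2.24 TPM and were not called with TPM as deposited. Sema4g had its lowest mean in neurons, at 0.74 TPM, beside 2.14 in astrocytes and 2.24 in microglia, and neuron minus microglia was -0.88 ± 0.21 on the log2 scale. That difference became a call at -1.26 after median-of-ratios scaling, -1.46 after quantile normalization and -1.10 without microglia libraries 1 and 2. Sema4c, a Plxnb2 ligand, had its highest mean in microglia, at 1.91 ± 0.41 TPM, beside 0.902 ± 0.273 in neurons and 0.654 ± 0.563 in astrocytes. Its astrocyte minus microglia difference of -0.86 ± 0.19 became a call at -1.26 and -1.41 under the 2 scalings, and neuron minus microglia at -1.24 under quantile normalization.

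Class 6 semaphorins, transmembrane ligands of the class A plexins, divided between neurons and astrocytes. Sema6d (chr2:124089969-124667770, plus strand), which can also act as a receptor, had 7.13, 6.27, 6.47, 8.87 and 6.01 in the neuron libraries, 18.6, 14.5, 29.3, 24.4 and 23.1 in the astrocyte libraries and 3.53, 3.83, 3.71, 2.63 and 2.87 in the microglia libraries. Astrocytes stood above neurons and neurons above microglia with no overlap, and log2 differences were -1.51 ± 0.18 (adjusted p = 1.53e-06) for neuron minus astrocyte and 2.39 ± 0.18 (adjusted p = 1.50e-09) for astrocyte minus microglia. Sema6a, a ligand of Plxna2 and Plxna4, was the highest membrane semaphorin of neurons, with 8.52, 9.39, 14.1, 11.8 and 10.98 in the neuron libraries, 4.24, 3.77, 7.96, 10.1 and 6.89 in the astrocyte libraries and 6.83, 7.7, 4.28, 0.42 and 2.7 in the microglia libraries. Its neuron libraries lay above all microglia libraries but overlapped the astrocyte libraries, and the microglia libraries spread widely. Neuron minus microglia was 1.39 ± 0.38 (adjusted p = 0.0038), a call that ended without microglia library 4, without all libraries numbered 3 and 4 and under both scalings. Astrocyte minus microglia for Sema6a was 0.68 ± 0.38 (adjusted p = 0.121) and, without microglia libraries 1 and 2, 1.25 ± 0.36 (adjusted p = 0.00538).

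Sema6b was higher in neurons than in microglia by 1.64 ± 0.15 (adjusted p = 1.90e-08) on the log2 scale, with means of 3.34 TPM in neurons, 1.33 TPM in astrocytes and 0.394 TPM in microglia, and Sema6c was not called. Sema7a (chr9:57940112-57962865, plus strand), a GPI-anchored ligand that binds Plxnc1 and integrins, was highest in neurons. It had 6.13, 6.9, 6.57, 8.74 and 7.46 in the neuron libraries, 1.28, 0.78, 2.08, 1.68 and 1.46 in the astrocyte libraries and 0.36, 0.21, 0.3, 0.04 and 0.22 in the microglia libraries, in groups with no overlap. Fitted log2 differences were 1.75 ± 0.16 (adjusted p = 4.31e-08) for neuron minus astrocyte and 2.73 ± 0.16 (adjusted p = 4.82e-11) for neuron minus microglia. Of the class 5 genes, which carry thrombospondin repeats, Sema5b averaged 2.29 TPM in neurons, 1.67 TPM in astrocytes and 0.158 TPM in microglia and was called lower in microglia than in both others, and Sema5a was not called.

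The class B plexins, mostly receptors of class 4 semaphorins, divided between astrocytes and microglia. Plxnb1 (chr9:109095389-109119917, plus strand), a Sema4d receptor, was an astrocyte gene with 0.77, 0.7, 0.98, 0.98 and 1.32 in the neuron libraries, 9.52, 5.9, 11.9, 11.9 and 7.5 in the astrocyte libraries and 0.44, 0.66, 0.51, 0.53 and 0.49 in the microglia libraries. Its lowest astrocyte library was far above every other library, and the neuron libraries were all above the microglia libraries. The log2 difference was -2.37 ± 0.17 (adjusted p = 2.80e-09) for neuron minus astrocyte and 2.72 ± 0.17 (adjusted p = 1.39e-10) for astrocyte minus microglia. Plxnb2 (chr15:89155549-89180788, minus strand), a receptor for Sema4c and Sema4d among others, was the most abundant guidance gene of microglia and the most abundant plexin of all 3 cell types. It had 5.11, 4.14, 13.2, 8.04 and 9.38 in the neuron libraries, 14.2, 13.9, 12.7, 13 and 12.5 in the astrocyte libraries and 25.5, 29.2, 56.3, 64.3 and 50.3 in the microglia libraries. Every microglia library exceeded every library of the other cell types, the 5 astrocyte libraries lay close together and the neuron libraries reached into their range. Neurons were lower than microglia by -2.37 ± 0.27 (adjusted p = 4.64e-07) and astrocytes lower by -1.60 ± 0.27 (adjusted p = 4.17e-05) on the log2 scale.

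Within microglia, Plxnb2 was lowest in libraries 1 and 2, at 25.5 and 29.2 TPM, where oligodendrocyte markers were highest, and without them astrocyte minus microglia was -2.02 ± 0.26 (adjusted p = 2.66e-06). Plxnb3 (chrX:73757090-73772514, plus strand), a Sema5a receptor known from oligodendrocytes, was low throughout, with 0.58, 0.47, 0.24, 0.57 and 0.71 in the neuron libraries, 0.16, 0.27, 0.3, 0.4 and 0.63 in the astrocyte libraries and 2.02, 3.04, 1.79, 1.85 and 1.59 in the microglia libraries. It passed the filter only through its microglia libraries, so that these all lay above all others is no separate support. The log2 difference was -1.004 ± 0.14 (adjusted p = 6.74e-06) for neuron minus microglia and -1.17 ± 0.14 (adjusted p = 9.77e-07) for astrocyte minus microglia. Library 2, with the second most oligodendrocyte transcripts, was also highest for Plxnb3. Both calls ended with limma's array weights, and that against neurons also without neuron library 2 or neuron library 3. When any 1 microglia library was left out, Plxnb3 no longer passed the filter and was not tested.

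Of the class A plexins, which pair with neuropilins for secreted semaphorins, Plxna2 (chr1:194618218-194816869, plus strand) was enriched in neurons. It measured 5.17, 5.54, 6.61, 7.86 and 8.45 in the neuron libraries, 1.39, 1.59, 1.78, 1.56 and 1.35 in the astrocyte libraries and 0.42, 0.26, 0.33, 0.38 and 0.53 in the microglia libraries. The groups did not overlap, and the log2 difference was 1.59 ± 0.14 (adjusted p = 4.45e-08) for neuron minus astrocyte and 2.46 ± 0.14 (adjusted p = 5.69e-11) for neuron minus microglia. Plxna4, the usual Nrp1 partner for Sema3a, had a different order and was not called. It averaged 1.48 ± 0.458 TPM in neurons, 0.714 ± 0.273 TPM in astrocytes and 2.04 ± 0.783 TPM in microglia, and every astrocyte library lay below every microglia library. Its astrocyte minus microglia difference of -0.80 ± 0.19 (adjusted p = 9.12e-04) passed the size for a call under both scalings and without microglia libraries 1 and 2. Plxna1 averaged 2.44 TPM in neurons, 2.52 TPM in astrocytes and 0.55 TPM in microglia. It was called lower in microglia than in both others, but neither call held under the scalings or without microglia libraries 1 and 2, and that against astrocytes also ended without astrocyte library 4. Plxna3 and Plxnc1 were not called.

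Plxnd1, a receptor of vascular patterning that binds Sema3e, averaged 3.14 ± 1.05 TPM in neurons, 1.88 ± 1.26 TPM in astrocytes and 0.402 ± 0.371 TPM in microglia, with 1.56 ± 0.28 (adjusted p = 8.37e-05) for neuron minus microglia on the log2 scale.

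The neuropilins were not called with TPM as deposited. Nrp1, the co-receptor for class 3 semaphorins and for VEGF, had 17.6, 16.6, 29.5, 30.8 and 15.5 in the neuron libraries, 8.87, 5.31, 15.97, 15.6 and 12.8 in the astrocyte libraries and 14.1, 14.2, 21.96, 25.9 and 16.1 in the microglia libraries. The 3 ranges overlapped pairwise. Its log2 difference was 0.89 ± 0.28 (adjusted p = 0.0111) for neuron minus astrocyte, 0.22 ± 0.28 (adjusted p = 0.484) for neuron minus microglia and -0.66 ± 0.28 (adjusted p = 0.0383) for astrocyte minus microglia, and neuron minus microglia changed sign under both scalings, to -0.36 and -0.14. Astrocyte minus microglia became a call under both, at -1.32 (adjusted p = 4.33e-05) after median-of-ratios scaling and -1.14 (adjusted p = 1.20e-04) after quantile normalization, and neuron minus astrocyte under quantile normalization, at 1.01 (adjusted p = 5.01e-04). Nrp2 averaged 2.01 ± 0.646 TPM in neurons, 1.79 ± 0.849 TPM in astrocytes and 2.13 ± 0.614 TPM in microglia. As a sum, the neuropilins were highest in neurons as deposited (24.03 ± 7.98 TPM, 13.5 ± 5.298 in astrocytes and 20.6 ± 5.58 in microglia) and highest in microglia after median-of-ratios scaling (20.7 ± 4.599, 10.9 ± 2.94 and 27.7 ± 6.75). Their ligand Sema3c was called in all 3 comparisons.

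Ephrin-As, GPI-anchored ligands of the EphA receptors, held the most abundant guidance gene of the dataset. Efna1 (chr3:89271733-89281142, minus strand), first known as a gene that human endothelial cells induce in response to tumour necrosis factor, had 51.9, 51.7, 105, 102 and 64.5 in the neuron libraries, 13.04, 14.6, 19.1, 16.3 and 12.4 in the astrocyte libraries and 10.2, 14.99, 8.83, 3.17 and 4.93 in the microglia libraries. Every neuron library was above every other library, and the astrocyte and microglia ranges overlapped. On the log2 scale the difference was 2.19 ± 0.30 (adjusted p = 8.81e-06) for neuron minus astrocyte, 3.10 ± 0.30 (adjusted p = 6.24e-08) for neuron minus microglia and 0.91 ± 0.30 (adjusted p = 0.0124) for astrocyte minus microglia. Microglia libraries 1 and 2 held the most Efna1 of that cell type, and without them astrocyte minus microglia was 1.35 ± 0.28 (adjusted p = 4.78e-04).

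Efna3 (chr3:89313899-89322965, minus strand) lies 32.8 kb from Efna1 and 10.4 kb from Efna4. It had 8.16, 3.66, 4.5, 5.96 and 6.54 in the neuron libraries, 0.84, 1.52, 0.42, 1.01 and 0.68 in the astrocyte libraries and 0.22, 0.31, 0.39, 0.41 and 0.24 in the microglia libraries, with no overlap between groups. The neuron values were called higher, by 1.82 ± 0.18 (adjusted p = 2.06e-07) against astrocytes and 2.33 ± 0.18 (adjusted p = 4.01e-09) against microglia on the log2 scale. Efna4, the third gene of this cluster on chromosome 3, did not share the difference between neurons and astrocytes, with 2.84 ± 1.28 TPM in neurons, 2.54 ± 1.03 TPM in astrocytes and 0.656 ± 0.263 TPM in microglia. Its neuron minus astrocyte difference was 0.10 ± 0.25 (adjusted p = 0.758). It was called higher in astrocytes than in microglia, at 1.06 ± 0.25 (adjusted p = 0.00101), but not without astrocyte library 3 or 5 or microglia library 1.

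Efna2 (chr10:80179482-80190010, plus strand) was the astrocyte member of the family. It had 2.92, 2.36, 2.94, 3.5 and 2.64 in the neuron libraries, 11.1, 9.13, 15.1, 11.96 and 14.3 in the astrocyte libraries and 1.29, 2.36, 0.92, 0.18 and 0.47 in the microglia libraries. All astrocyte libraries were above all neuron libraries, and the highest microglia library equalled the lowest neuron library at 2.36 TPM. Fitted log2 differences were -1.77 ± 0.23 (adjusted p = 4.78e-06) for neuron minus astrocyte, 2.78 ± 0.23 (adjusted p = 6.28e-09) for astrocyte minus microglia and 1.01 ± 0.23 (adjusted p = 8.68e-04) for neuron minus microglia. The last call ended under both scalings, without neuron library 4, without microglia library 4 or 5 and without all libraries numbered 3 and 4. Efna5 stayed at or below 0.8 TPM in every library and was not tested.

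The transmembrane ephrin-Bs, ligands of the EphB receptors, were more even. Efnb1 averaged 4.7 ± 0.825 TPM in neurons, 2.89 ± 0.941 TPM in astrocytes and 3.81 ± 1.32 TPM in microglia and was not called. Efnb2, known from arteries as the partner of Ephb4 in veins, averaged 2.702 ± 0.641, 1.31 ± 0.639 and 0.288 ± 0.0576 TPM in the same order, with 1.51 ± 0.18 (adjusted p = 6.04e-07) for neuron minus microglia on the log2 scale. Efnb3, a midline repellent also known from myelin, had 1.75, 2.74, 1.92, 2.15 and 2.38 TPM in the neuron libraries, 1.3, 1.05, 2.21, 2.61 and 1.68 in the astrocyte libraries and 9.03, 12.6, 4.63, 0.23 and 2.15 in the microglia libraries. Microglia libraries 1 and 2 were the highest of all and microglia library 4 the lowest of all, and no comparison was called with TPM as deposited and all libraries. Without microglia library 4, and without all libraries numbered 3 and 4, Efnb3 counted as enriched in microglia. Neuron minus microglia was -0.64 ± 0.45 (adjusted p = 0.213) and, without microglia libraries 1 and 2, 0.18 ± 0.34 (adjusted p = 0.667). Under quantile normalization it was a call at -1.28, and astrocyte minus microglia was one under both scalings, at -1.356 and -1.495.

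EphA receptors ran higher in neurons and EphB receptors in astrocytes, but within each class the genes differed. Epha4 (chr1:77367185-77515088, minus strand), which binds ephrins of both classes and acts on dendritic spines, had 7.92, 8.4, 15.4, 13.8 and 13.2 in the neuron libraries, 2.62, 2.27, 4.77, 4.54 and 4.25 in the astrocyte libraries and 1.23, 1.06, 0.62, 0.19 and 1.3 in the microglia libraries. Neurons, astrocytes and microglia followed in that order with no overlap. The log2 difference was 1.44 ± 0.24 (adjusted p = 6.04e-05) for neuron minus astrocyte, 2.76 ± 0.24 (adjusted p = 1.21e-08) for neuron minus microglia and 1.32 ± 0.24 (adjusted p = 8.00e-05) for astrocyte minus microglia, the last ending under both scalings and without all libraries numbered 3 and 4. Epha5, a receptor of topographic maps, was shared by neurons and astrocytes, with 5.27, 2.9, 7.54, 8.1 and 9.36 in the neuron libraries, 4.41, 3.74, 7.51, 7.74 and 3.85 in the astrocyte libraries and 0.35, 0.52, 0.32, 0.13 and 0.47 in the microglia libraries. Its neuron and astrocyte ranges overlapped and both were far above microglia, by 2.42 ± 0.25 (adjusted p = 1.27e-07) for neurons and 2.20 ± 0.25 (adjusted p = 3.69e-07) for astrocytes on the log2 scale, while neuron minus astrocyte was 0.22 ± 0.25 (adjusted p = 0.486).

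Epha7 and Epha3 were lower than Epha5 and higher in neurons than in microglia, by 1.79 ± 0.18 (adjusted p = 1.05e-07) for Epha7 and 1.21 ± 0.19 (adjusted p = 2.20e-05) for Epha3 on the log2 scale. Epha7 was also called higher in astrocytes than in microglia, at 1.08 ± 0.18 (adjusted p = 3.90e-05), a call that ended under both scalings and without astrocyte library 5. Epha2 averaged 1.44 TPM in neurons, 0.876 TPM in astrocytes and 1.33 TPM in microglia and was not called. Epha1, Epha6, Epha8 and the kinase-dead Epha10 were not tested and reached at most 2.16 TPM in any library.

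Ephb1 (chr9:101922128-102354693, minus strand) was the most abundant Eph receptor of astrocytes. It had 2.12, 2.12, 1.75, 2.11 and 2.73 in the neuron libraries, 13.02, 12.5, 20.8, 17.4 and 16.6 in the astrocyte libraries and 7.41, 7.99, 2.98, 0.26 and 2.24 in the microglia libraries. All astrocyte libraries lay above all others, the neuron libraries lay close together, and the microglia libraries ran from far below to far above them. Neuron minus astrocyte was -2.42 ± 0.38 (adjusted p = 3.92e-05) and astrocyte minus microglia 2.02 ± 0.38 (adjusted p = 1.39e-04) on the log2 scale. Without microglia libraries 1 and 2, astrocyte minus microglia was 2.73 ± 0.30 (adjusted p = 4.34e-07) and neuron minus microglia, -0.40 with all libraries, was 0.31 ± 0.30 (adjusted p = 0.368), neither value being a call. Under quantile normalization neuron minus microglia was a call at -1.05. Ephb3 (chr16:21204755-21223305, plus strand) had 1.41, 0.91, 0.52, 1.94 and 1.34 in the neuron libraries, 4.69, 3.04, 8.42, 6.98 and 5.59 in the astrocyte libraries and 0.53, 0.58, 0.73, 1.27 and 0.6 in the microglia libraries. Its astrocyte libraries were likewise above all others, with log2 differences of -1.58 ± 0.22 (adjusted p = 1.02e-05) for neuron minus astrocyte and 1.91 ± 0.22 (adjusted p = 4.69e-07) for astrocyte minus microglia.

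Ephb4, the receptor of veins that pairs with Efnb2, followed the neuron order instead, with 3.29, 3.13, 6.91, 6.7 and 5.06 in the neuron libraries, 1.67, 1.66, 4.5, 2.33 and 2.95 in the astrocyte libraries and 0.22, 0.24, 0.29, 0.14 and 0.06 in the microglia libraries. Neuron and astrocyte libraries overlapped and all were above all microglia libraries. On the log2 scale the difference was 2.29 ± 0.22 (adjusted p = 5.37e-08) for neuron minus microglia, 1.55 ± 0.22 (adjusted p = 5.97e-06) for astrocyte minus microglia and 0.73 ± 0.22 (adjusted p = 0.0094) for neuron minus astrocyte. Ephb6, which lacks kinase activity, was lower in microglia than in both others, with means of 3.33 TPM in neurons, 2.52 TPM in astrocytes and 0.502 TPM in microglia. Ephb2 reached 1.14 TPM in 1 library only and was not tested. Exons of Ephb4 overlap those of Zan on the other strand, so part of its value is uncertain.

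In neurons, Robo4 led the Robos and Slit3 the Slits. Robo4 (chr9:37401897-37415115, plus strand), the endothelial Robo that stabilises vessels, had 13.4, 15.2, 21.7, 25.4 and 18.7 in the neuron libraries, 3.35, 2.11, 4.4, 3.75 and 3.97 in the astrocyte libraries and 0.21, 0.65, 0.5, 0.31 and 0.62 in the microglia libraries. The 3 groups did not overlap, with neurons highest and microglia lowest. Fitted log2 differences were 2.13 ± 0.19 (adjusted p = 5.47e-08) for neuron minus astrocyte, 3.74 ± 0.19 (adjusted p = 1.24e-11) for neuron minus microglia and 1.62 ± 0.19 (adjusted p = 7.25e-07) for astrocyte minus microglia, the last ending under quantile normalization. The endothelial markers kept the same order of cell types, with median log2 differences of 2.32, 4.22 and 2.21 for these comparisons, beside 2.30, 3.53 and 1.31 for the neuron markers. By library, the endothelial markers summed to 3389, 3547, 5251, 5360.4 and 6082 TPM in neurons, and Robo4 was lowest in libraries 1 and 2, as they were. Epha4 and Plxna2 were also lowest in these among the neuron libraries. The highest Robo4 value, 25.4 TPM, and the highest marker sum, 6082 TPM, fell in different libraries. The part of endothelial and mural cell transcripts in the levels of Robo4, Sema3c, Sema3g, Efna1, Efnb2, Plxnd1, Ntn4, Unc5b and Ephb4 was not tested.

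Robo3, the receptor of crossing commissural axons, ends 0.6 kb from the end of Robo4 on the other strand and reached at most 0.63 TPM. Robo1 and Robo2, the main neuronal Slit receptors, were both present in astrocytes. Robo2 had 2.86, 1.51, 3.3, 3.18 and 3.21 in the neuron libraries, 2.79, 2.31, 4.28, 4.05 and 3.34 in the astrocyte libraries and 0.25, 0.34, 0.2, 0.08 and 0.24 in the microglia libraries. Its neuron and astrocyte libraries overlapped and all lay above microglia, by 1.62 ± 0.17 (adjusted p = 1.83e-07) for neurons and 1.81 ± 0.17 (adjusted p = 3.46e-08) for astrocytes on the log2 scale. Robo1 was not tested, having passed 1 TPM in 3 libraries only, all of astrocytes, with 0.93, 0.74, 4.5, 3.55 and 3.07 TPM in the astrocyte libraries beside 0.37 to 0.6 in neurons and 0.03 to 0.11 in microglia.

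Slit3 was the highest Slit of neurons, though it passed 1 TPM in 4 libraries and was therefore not tested. It had 3.77, 0.54, 10.1, 8.6 and 9.01 in the neuron libraries, 0.93, 0.49, 0.13, 0.06 and 0.33 in the astrocyte libraries and 0.05, 0.08, 0.1, 0 and 0.5 in the microglia libraries. Neuron library 2 fell within the astrocyte range, and the other 4 neuron libraries were the highest of all. Slit2 had 0.98, 0.84, 2.42, 1.27 and 1.35 in the neuron libraries, 0.31, 0.96, 2.18, 3.9 and 1.55 in the astrocyte libraries and 0.25, 0.65, 0.17, 0.23 and 0.13 in the microglia libraries. Its neuron and astrocyte ranges overlapped and the microglia libraries were below all neuron libraries, with 0.86 ± 0.27 (adjusted p = 0.0086) for neuron minus microglia, short of the size for a call. Slit1 reached 1.28 TPM at most.

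Netrins were led by a basement membrane gene. Ntn4 (chr10:93640681-93747207, plus strand), a netrin that binds laminin in vascular and other basement membranes, had 7.57, 4.77, 10.2, 9.48 and 9.94 in the neuron libraries, 2.52, 1.39, 3.41, 3.84 and 3.27 in the astrocyte libraries and 0.43, 0.85, 0.79, 0.37 and 1.02 in the microglia libraries. Its groups did not overlap, with neurons highest and microglia lowest. The log2 difference was 1.27 ± 0.22 (adjusted p = 9.48e-05) for neuron minus astrocyte, 2.45 ± 0.22 (adjusted p = 2.07e-08) for neuron minus microglia and 1.17 ± 0.22 (adjusted p = 1.22e-04) for astrocyte minus microglia, the last ending under both scalings and without all libraries numbered 3 and 4. Ntn1, the classical netrin of commissural axons, averaged 1.91 ± 0.385 TPM in neurons, 1.104 ± 0.474 TPM in astrocytes and 0.098 ± 0.132 TPM in microglia, with 1.40 ± 0.16 (adjusted p = 3.45e-07) for neuron minus microglia on the log2 scale.

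Ntn5 was called higher in neurons than in microglia at 1.12 ± 0.21 (adjusted p = 1.23e-04) and Ntn3 was not called. Exons of Ntn3 overlap Tbc1d24 and those of Ntn5 overlap Sec1, so both values are uncertain. The netrin-Gs, GPI-anchored synaptic proteins that bind Lrrc4c and Lrrc4 in place of Dcc, reached at most 1.51 TPM for Ntng1 and 0.73 TPM for Ntng2 and were not tested.

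Of the netrin receptors, the attractive receptor Dcc was lowest in microglia and low elsewhere. Dcc had 0.48, 0.41, 0.63, 1.08 and 0.99 in the neuron libraries, 0.94, 0.72, 2.1, 1.16 and 0.77 in the astrocyte libraries and 0.08, 0.07, 0.04, 0.03 and 0.01 in the microglia libraries. The neuron and astrocyte ranges overlapped, and Dcc did not enter the test. Among the repulsive Unc5 receptors, Unc5b, which is also known from blood vessels, had 3.07, 2.89, 4.44, 3.75 and 2.4 in the neuron libraries, 0.58, 0.48, 0.91, 0.68 and 0.74 in the astrocyte libraries and 2.3, 3.02, 0.99, 0.16 and 0.73 in the microglia libraries. Its neuron libraries were above all astrocyte libraries, and the microglia libraries ranged from below the astrocytes into the neurons. Neuron minus astrocyte was 1.35 ± 0.26 (adjusted p = 2.73e-04) and neuron minus microglia 0.94 ± 0.26 (adjusted p = 0.00365) on the log2 scale. Without microglia libraries 1 and 2, the highest of that cell type, neuron minus microglia was 1.42 ± 0.20 (adjusted p = 9.77e-06).

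Unc5a, which passed the filter only through its neuron libraries, averaged 2.01 ± 0.545 TPM in neurons, 0.648 ± 0.0606 TPM in astrocytes and 0.27 ± 0.144 TPM in microglia. Neuron minus microglia was 1.23 ± 0.13 (adjusted p = 2.33e-07) on the log2 scale, and its exons overlap Hk3. Unc5c had 1.7, 0.94, 2.08, 1.73 and 2.18 in the neuron libraries, 0.92, 0.93, 2.91, 1.41 and 1.15 in the astrocyte libraries and 0.73, 1.83, 0.43, 0.05 and 0.36 in the microglia libraries, in ranges that overlapped in every pair of cell types, and was not called. Unc5d reached at most 0.68 TPM and Unc5cl averaged 0.524 TPM in neurons, 1.59 TPM in astrocytes and 0.414 TPM in microglia, and neither was tested.

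The 5 microglia libraries were unlike each other for several guidance genes. By library, the oligodendrocyte markers summed to 60264, 41245, 4787, 220.01 and 7092 TPM in microglia. Of the 20 guidance genes with a mean of at least 1 TPM in microglia, libraries 1 and 2 were the 2 highest for 8 (Efna1, Efna2, Efnb3, Ephb1, Plxnb3, Sema4d, Sema6a and Unc5b) and the 2 lowest for 7 (Efnb1, Nrp1, Nrp2, Plxna4, Plxnb2, Sema4b and Sema4g). Over all 11126 genes at that level, libraries 1 and 2 were highest for 15.7% and lowest for 38.1%. Without these 2 libraries, 29 of 53 guidance genes were called higher and 5 lower in neurons than in microglia, beside 31.7% and 9.29% of the 13070 genes then tested. In astrocytes 22 were then higher and 2 lower than in microglia, beside 33.8% and 9.41%. The part of oligodendrocyte transcripts in these differences between libraries was not tested.

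**Figure D4:**
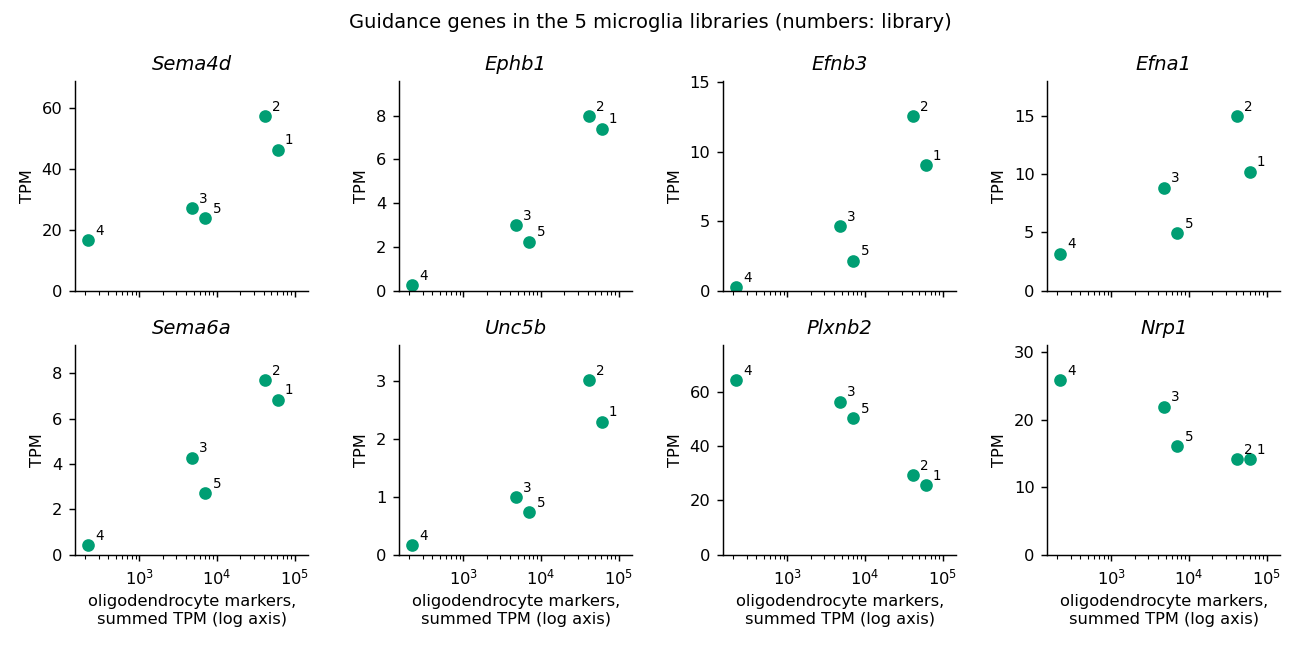
TPM of 8 guidance genes (y axes, linear) against the summed TPM of 9 oligodendrocyte markers (x axes, log scale) in the 5 microglia libraries, numbered. Sema4d, Ephb1, Efnb3, Efna1, Sema6a and Unc5b are highest in libraries 1 and 2, where the marker sum is 60264 and 41245 TPM, while Plxnb2 and Nrp1 are lowest there.

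Signalling partners of the guidance receptors outside the set were counted in the same fit, from 55 co-receptors, other ligands and cytoplasmic effectors, of which 51 were tested. In neurons 9 were called higher than in astrocytes and 9 lower (17.6% each way, beside 12.9% and 12.7% of all tested genes). The largest differences were those of Chn2 (2.11 ± 0.26), Crmp1 (1.85 ± 0.21) and Dpysl3 (1.76 ± 0.18), a GTPase-activating protein and 2 collapsin response mediators, and on the lower side those of Vav3 (-2.36 ± 0.17), Rgma (-2.06 ± 0.25) and Ngef (-1.998 ± 0.24), a GTPase exchange factor, a neogenin ligand and the ephexin that acts downstream of Epha4. Values are log2 differences, neuron minus astrocyte.

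Against microglia, 23 partners were called higher and 6 lower in neurons (45.1% and 11.8%, beside 29.5% and 9.74% of all tested genes), led by Dpysl3 (4.10 ± 0.18), Chn1 (3.73 ± 0.42) and Crmp1 (3.56 ± 0.21) and by Srgap2 (-2.78 ± 0.30), Fes (-2.43 ± 0.24) and Evl (-1.94 ± 0.20). In astrocytes 26 were higher and 10 lower than in microglia (51% and 19.6%, beside 32.3% and 10.2%), led by Nrcam (4.32 ± 0.29), Ngef (4.31 ± 0.24) and Enah (3.26 ± 0.20) and by Fes (-3.68 ± 0.24), Srgap2 (-3.33 ± 0.30) and Evl (-2.60 ± 0.20). Counts against microglia were 19 higher and 9 lower in neurons, and 23 and 12 in astrocytes, after median-of-ratios scaling, and 18 and 9, and 19 and 13, after quantile normalization. Srgap2, a GTPase-activating protein named for the Slit-Robo pathway, averaged 15.02 TPM in neurons, 9.95 TPM in astrocytes and 111 TPM in microglia. Microglia held the highest mean of this Robo effector while Robo1, Robo2 and Robo4 averaged 0.062, 0.222 and 0.458 TPM there.

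Of a few ligands and receptors of 1 system set side by side, chosen after their values were seen, some peaked in the same cell type and some did not. Sema4d averaged 5.14 ± 3.099 TPM in neurons, 16 ± 2.72 TPM in astrocytes and 34.2 ± 16.9 TPM in microglia, and its receptor Plxnb1 0.95 ± 0.242, 9.34 ± 2.66 and 0.526 ± 0.082. Plxnb2, which also binds Sema4d, had its highest mean in microglia like Sema4d, at 45.1 ± 17 TPM. Sema7a averaged 7.16 ± 1.01, 1.46 ± 0.482 and 0.226 ± 0.121 TPM and its receptor Plxnc1 0.738 ± 0.226, 1.91 ± 0.958 and 0.702 ± 1.03, where 1 microglia library stood at 2.55 TPM and the other 4 at 0.18 to 0.32. Efna1 and Epha4, Efnb2 and Ephb4, and Sema6a and Plxna2 had their highest means in neurons, and Sema4c and Plxnb2 in microglia. No test was made of these pairs, since RNA levels do not show which proteins meet.

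In all, 18 of the 55 tested genes were called in no comparison with TPM as deposited and all 15 libraries. The matching share of all tested genes was not counted, so this number only lists genes and does not set the guidance genes apart. They were Efnb1, Efnb3, Epha2, Nrp1, Nrp2, Ntn3, Plxna3, Plxna4, Plxnc1, Sema3d, Sema3f, Sema4c, Sema4f, Sema4g, Sema5a, Sema6c, Slit2 and Unc5c. For the uncalled genes of each comparison, log2 differences ran between -0.81 and 0.92 for neuron minus astrocyte, -0.93 and 0.97 for neuron minus microglia, and -0.93 and 0.99 for astrocyte minus microglia. A difference short of a call does not show that levels were equal: 16, 14 and 20 of these had an adjusted p below 0.05 with a difference too small for a call. Of the 17 genes not tested, 7 reached 1 TPM in no library (Efna5, Epha1, Epha8, Ntng2, Robo3, Sema3e and Unc5d).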

How the data were processed

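Per the labels, polyA RNA from magnetically isolated cells was made into PCR-amplified cDNA libraries and sequenced in pairs on a NovaSeq. The authors deposited TPM per gene, with Trim Galore 0.6.4, STAR 2.7.1a, RSEM 1.2.28, DESeq2 1.36.0 and mm10 named in the submitters' processing notes. TPM keeps no read depth, so depth per library and counting errors are unknown, and whether counting used strand is not given in the sources used here. Every column summed to 1000000 TPM within rounding, and no 2 libraries were identical.

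From these values, log2(TPM + 1) was fitted with limma 3.58.1 (1 mean per cell type, all 15 libraries, variance trend) for the 13351 genes that reached 1 TPM in 5 libraries or more. Adjustment was over all of them. The guidance genes, lists and tests were chosen with earlier results of these data known. Genes with values per library are, by rule, called genes with no overlap between groups, up to 10 per direction, and the leading gene of each family. Dcc and Robo1 were added as best-known receptors. The 9 marker lists and the 55 partners come from general knowledge. One gene of the oligodendrocyte list is not reported here and was left out of its sums. Coordinates are from GENCODE vM21 on mm10, and promoters from RefSeq on GRCm38.p6.

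Replicate numbers are shared between cell types. Same-numbered libraries, after removal of group means, correlated at 0.216 to 0.382 between neurons and microglia, which by the rule used here counts as pairing, at -0.0329 to 0.233 between neurons and astrocytes and at -0.011 to 0.249 between astrocytes and microglia. Differently numbered libraries correlated at -0.374 to 0.338, -0.314 to 0.318 and -0.282 to 0.274 for the same pairs of cell types. These ranges overlap those of same-numbered libraries, and the rule did not compare the 2, so it does not establish a pairing. The labels give none. The fit was repeated with a pseudocount of 0.1, no filter, a 5 TPM filter, 2 scalings, fits of 2 cell types, no variance trend, array weights, the replicate block, and libraries left out singly or in sets. Figures used matplotlib 3.10.9, and tables Python 3.11.15, numpy 2.4.6, pandas 2.3.3 and R 4.3.3.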

Additional observations from a re-analysis of the deposited data

Results flagged for a closer look

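In 3 of the 108 groups of 5 libraries examined, 1 library stood far from the other 4, where chance gives about 1 in 20. Robo2 was at 1.51 TPM in neuron library 2, beside 2.86 to 3.30 TPM in the other neuron libraries. Sema3d was at 2.56 TPM in neuron library 5, beside 1.62 to 1.80 TPM in the others. Unc5c was at 2.91 TPM in astrocyte library 3, beside 0.92 to 1.41 TPM in the others.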

How the results depend on the processing

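Of 71 called differences of guidance genes, 45 kept their call under every alternative in which the gene was tested and 26 fell short of it under at least 1, and none of 1810 recomputed values reversed. With the replicate block and 55 tested, neuron minus astrocyte had 10 higher and 9 lower (beside 13.1% and 12.7% of all genes). Neuron minus microglia had 26 and 4 (beside 29.6% and 9.8%) and astrocyte minus microglia 20 and 2 (beside 32.4% and 10.2%). Enriched were 9 in neurons, 8 in astrocytes and 2 in microglia (beside 9.7%, 10.2% and 7.48%), with no call changed. A pseudocount of 0.1 gave, of 55 tested, 7 lower in neurons than microglia (beside 11% of all genes tested in that fit). It gave 37 higher and 4 lower in astrocytes than microglia (beside 40.2% and 11.3%), and 15 enriched in neurons (beside 11.4%). With the 5 TPM filter, which left 17 guidance genes, 6 were higher in neurons than astrocytes (beside 13.7% of all genes) and 9 higher in neurons than microglia (beside 28.9%). In astrocytes 10 were higher and 1 lower than in microglia (beside 34.5% and 11.2%), and 1 was enriched in microglia (beside 8.24%). Median-of-ratios scaling, with 51 tested, gave 12 higher and 7 lower in astrocytes than microglia (beside 19.6% and 17.4% of all genes). Quantile normalization, with 55 tested, gave 13 higher and 9 lower in neurons than microglia (beside 18.3% and 14.6% of all genes). It gave 10 higher and 7 lower in astrocytes than microglia (beside 18.5% and 15.3%), and 5 enriched in microglia (beside 10.7%). Array weights (55 tested), and the omission of all libraries numbered 1 and 2 (42 tested), each gave 1 lower in astrocytes than microglia and 1 enriched in microglia. Beside these stood 10.5% and 8.99% of all genes lower, and 7.77% and 6.25% enriched. Without microglia libraries 1 and 2, 1 of 53 was enriched in microglia (beside 6.73%). Without all libraries numbered 3 and 4, which left 33 guidance genes, 15 were higher in neurons than microglia (beside 26.7% of all genes) and 3 enriched in microglia (beside 5.9%). The omissions of libraries 1 and 2 or 3 and 4 of all cell types, the scaled family sums, and the scalings of the partner genes were chosen after seeing the data. The causes of these moves were not tested, except that stricter filters and omitted libraries leave fewer genes to test.

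Leaving out each library in turn left 49 to 54 guidance genes tested. Of these, 9 to 11 were called higher for neuron minus astrocyte. For neuron minus microglia it was 22 to 29, and for astrocyte minus microglia 17 to 24. Over all genes tested, the shares called higher ran from 12% to 13.6%, 28.2% to 30.9% and 30.3% to 33.7%. Guidance genes called lower ranged from 8 to 9, 3 to 4 and 1 to 3. The shares of all genes called lower ran from 10.9% to 13.6%, 8.23% to 10.2% and 8.68% to 10.6%. Enriched genes ranged from 8 to 10 in neurons, 7 to 8 in astrocytes and 1 to 3 in microglia. Beside these stood 8.81% to 9.92%, 8.73% to 10.8% and 5.95% to 7.68% of all genes. In microglia the count was 1 without neuron library 2 or 3 or microglia library 1, 2 or 3, and 3 without microglia library 4. Read depth is unknown, so differences of genes near 1 TPM cannot be set against counting error.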
